A study of Mus musculus with 15 samples.

Results

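The genes described here are 9 leukocyte integrin chains and adhesion ligands, Itgal, Itgam, Itgax, Itgb2, Itga4, Itgb7, Icam1, Icam2 and Selplg, which were chosen by name among the 46078 genes of the count table. They were measured by mRNA sequencing of the podocyte fraction of male C57BL/6J mice, which is the part of a digested kidney cortex that anti-Nephrin antibodies and magnetic beads retain. Young mice were 4 months old and uninjected. Aged mice were 21 months old and received weekly intraperitoneal injections, at 12 mg/kg for 8 weeks, of either the isotype control IgG2A antibody 2A3 (aged IgG2a-injected) or the anti-mouse PD-1 antibody RMP1-14 (aged aPD1ab-injected, whose sample titles say 47 days). The young mice had no injection, so aged IgG2a-injected and young mice differed in age and in the isotype antibody, which cannot be told apart. Aged aPD1ab-injected and young mice likewise differed in both age and the injected anti-PD-1 antibody, which cannot be told apart either. The labels list 5 mice in each group. The count table ties 5 young, 4 aged IgG2a and 4 aged aPD1ab columns to a group by the numbers printed beside the points of the principal component plot of the study, and 2 other columns were not used here. Replicate numbers below follow the column order and are names only.

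Integrins are receptors made of an alpha and a beta chain that leukocytes use to hold on to other cells and to matrix. Itgb2 (CD18) is the shared beta2 chain, and pairs with Itgal (CD11a) to form LFA-1, with Itgam (CD11b) to form Mac-1 or complement receptor 3, and with Itgax (CD11c) to form complement receptor 4. Itga4 (CD49d) pairs with Itgb7 to form the gut-homing integrin that binds Madcam1, or with Itgb1 to form VLA-4, the receptor of Vcam1. Icam1 and Icam2 are the immunoglobulin-like ligands of LFA-1, of which Icam1 is induced on endothelium and epithelium by inflammatory signals and Icam2 is carried by resting endothelium and some leukocytes. Selplg (PSGL-1) is the leukocyte ligand of the selectins, which slow a rolling cell before its integrins take hold.

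On GRCm38, with positions from GENCODE M21, all 9 are protein-coding genes. The 3 beta2-partner alpha chain genes lie on the plus strand of chromosome 7, Itgal (ENSMUSG00000030830) from 127296260 to 127335138, Itgam (ENSMUSG00000030786) from 128062640 to 128118491 and Itgax (ENSMUSG00000030789) from 128129547 to 128150657, so Itgam and Itgax are neighbours. Itgb2 (ENSMUSG00000000290) lies on chromosome 10 from 77530252 to 77565708, and Itga4 (ENSMUSG00000027009) on chromosome 2 from 79255426 to 79333123. Itgb7 (ENSMUSG00000001281, chromosome 15, 102215995 to 102231944), Icam2 (ENSMUSG00000001029, chromosome 11, 106377656 to 106388075) and Selplg (ENSMUSG00000048163, chromosome 5, 113818536 to 113832644) are on the minus strand, and Icam1 (ENSMUSG00000037405) is on chromosome 9 from 21015985 to 21028817. Exons of Itga4 overlap those of Cerkl on the opposite strand by up to 905 bases, and the strand setting of the counting is not given in the sources used here. Cerkl held 343 counts over the 13 libraries against 20359 for Itga4. Itgam shares up to 210 exonic bases with Gm49368 on its own strand, and Icam1 up to 511 with the antisense gene Gm47079, neither of which has a row in the count table.

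A RefSeq promoter window (GRCm38.p6, around the annotated start) was matched for 5 of the 9 genes, Itga4, Itgam, Itgax, Icam1 and Itgb7, and was not matched for Itgal, Itgb2, Icam2 and Selplg. The windows of 4 genes are printed because they belong to the neighbouring pair Itgam and Itgax, to Itga4, which stood apart from them in the comparisons below, and to the ligand Icam1. Capitals mark matches on either strand to GAGGAA (the core of the myeloid factor PU.1), TGTGGT (a RUNX motif) or GGNNNTTCC (an NF-kB motif), and the gene runs left to right.
Itgam, chr7:128062390-128062689, plus strand: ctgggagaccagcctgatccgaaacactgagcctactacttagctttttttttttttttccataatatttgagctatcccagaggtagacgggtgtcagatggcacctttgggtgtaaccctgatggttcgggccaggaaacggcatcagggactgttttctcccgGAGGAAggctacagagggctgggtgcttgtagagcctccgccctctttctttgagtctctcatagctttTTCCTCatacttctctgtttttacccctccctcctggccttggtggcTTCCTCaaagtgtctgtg
Itgax, chr7:128129300-128129599, plus strand: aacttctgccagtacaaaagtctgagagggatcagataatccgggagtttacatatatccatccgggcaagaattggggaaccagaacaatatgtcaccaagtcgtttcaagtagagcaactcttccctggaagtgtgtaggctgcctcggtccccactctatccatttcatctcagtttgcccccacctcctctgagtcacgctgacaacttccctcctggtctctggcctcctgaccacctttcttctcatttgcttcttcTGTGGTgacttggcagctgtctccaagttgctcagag
Itga4, chr2:79255176-79255475, plus strand: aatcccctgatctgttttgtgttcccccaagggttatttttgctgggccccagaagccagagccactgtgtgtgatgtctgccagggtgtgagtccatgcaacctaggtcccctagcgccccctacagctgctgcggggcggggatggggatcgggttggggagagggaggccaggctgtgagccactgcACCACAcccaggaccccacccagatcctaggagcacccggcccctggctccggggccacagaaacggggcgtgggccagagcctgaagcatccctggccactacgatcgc
Icam1, chr9:21015690-21015989, plus strand: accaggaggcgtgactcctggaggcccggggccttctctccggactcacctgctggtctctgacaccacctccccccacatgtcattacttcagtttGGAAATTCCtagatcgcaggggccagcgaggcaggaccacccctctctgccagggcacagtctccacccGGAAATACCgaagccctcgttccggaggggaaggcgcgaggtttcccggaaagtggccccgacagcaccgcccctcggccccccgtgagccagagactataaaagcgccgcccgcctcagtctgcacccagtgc

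The Itgam window held 3 matches to GAGGAA, at -84, -15 and 32 from the start. The windows of Itgax and Itga4 held 1 RUNX match each, at 13 and -60. Icam1 had the NF-kB motif at -153 on both strands, where the matches are the same bases, and at -84. In the Itgb7 window the GAGGAA motif stood once, at 2. Of 32851 promoter windows of this length, 28.3% held GAGGAA, 16.8% the RUNX motif and 18.5% the NF-kB motif, so the matches are letters shared with many other promoters.

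Total counts per library lay between 19912969 and 32717100, and 3 counts stood at between 0.0917 and 0.151 CPM (counts scaled to library size by the TMM method), far under every member in every library. The 6 pan-leukocyte markers (Ptprc and 5 others) summed to between 790 and 1360 CPM in young mice, to between 694 and 1511 in aged aPD1ab-injected mice, to between 2251 and 2603 in aged IgG2a replicates 2 to 4 and to 825 in aged IgG2a replicate 1, and all 6 were measured in every group. The 7 macrophage markers lay between 1355 and 2365 CPM in young mice, between 1449 and 3519 with aPD1ab and between 4625 and 6360 in aged IgG2a replicates 2 to 4. The 5 T cell markers summed to at most 14.2 CPM in any library, and of the 6 neutrophil markers Ly6g was at 3 counts or fewer in every young and every aged IgG2a library. B and plasma cell markers, 6 in all, summed to between 87.3 and 194 CPM in young mice. With IgG2a they summed to between 334 and 1017 CPM, and with aPD1ab to between 54.4 and 594. The 8 podocyte markers lay between 856 and 1373 CPM in young mice, between 509 and 711 with IgG2a, and between 259 and 836 with aPD1ab. The 8 proximal tubule markers lay between 856 and 1389 CPM in aged IgG2a replicates 2 to 4, at 4319 in aged IgG2a replicate 1 and at 4588 or more in each other library, up to 13743 in aged aPD1ab replicate 2. The fraction thus held leukocyte, tubule and endothelial transcripts beside podocyte transcripts, and fewer cells of a type and less RNA per cell cannot be told apart in it. Aged IgG2a replicate 1 stood apart from the other 3, and the study leaves it out of its own tables with no reason in the sources used here. In comparisons with the aged IgG2a group, counts of called members are given with and without replicate 1. Other values are over all libraries unless said otherwise. The part of these markers in the results below was not tested.

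Per length of annotated exons, Itgb2 had the highest level of the 9 genes and Itga4 the lowest in each of the 3 groups. The place of Itga4 rests on its exon length of 13978 bases, the longest of the 9, with Itgal next at 6569. In CPM, which has no length correction, Icam2 was lowest in young mice at 19.1. Itga4 stood there at 74.3, above Selplg at 66.4, Itgal at 64.5 and Itgb7 at 48.9. In young mice Itgb2 stood at 113 ± 29.1 TPM (a share of all transcripts corrected for length, SD, n = 5), followed by Itgax at 61.9 ± 21.6, Icam1 at 48.3 ± 11.7, Itgam at 46.9 ± 10.1, Itgb7 at 44.7 ± 10.4, Selplg at 39.4 ± 10.8, Icam2 at 25.4 ± 3.50, Itgal at 24.6 ± 8.55 and Itga4 at 13.5 ± 2.22. Ranges of neighbours in this order overlapped throughout in young mice. Within a library, Itgb2 was above Itgax in 5 of 5 young libraries, while Icam1 was above Itgam in 2 of 5 and Icam2 above Itgal in 2 of 5. In aged IgG2a-injected mice Itgam came after Itgax at 50.6 ± 20.2 TPM, followed by Icam1 at 46.1 ± 19.8 (SD, n = 4), and in aged aPD1ab-injected mice Icam1 came after Itgb2 at 46.9 ± 20.8 and Itgax came next at 44.8 ± 16.01 (SD, n = 4). With CPM per kilobase of exon in place of TPM, the order was unchanged in young mice, and neighbours changed places in the aged groups (Selplg with Icam1, and Itgax with Icam1). Both units divide by the same exon lengths.

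Did the adhesion genes differ between aged IgG2a-injected and young mice? Over all libraries, 0 of 9 passed the test in either direction, where 9.05% of 15953 genes were called higher and 8.38% lower (edgeR's quasi-likelihood test, Benjamini-Hochberg adjusted p under 0.05). By unadjusted p under 0.05, 4 of 9 were higher (Selplg, Itgam, Itgb2 and Itgax), beside 20% of all genes tested. Limma's voom with sample weights called those 4 higher, beside 24.3% of all genes, and DESeq2 called Itgam and Selplg higher, beside 14.3% of all genes. In CPM these 4 genes were above every young library in 3 of the 4 aged IgG2a libraries, and in replicate 1 they were below every young library. Without that replicate all 4 rose, by 2.05-fold to 2.45-fold, beside 22.1% of 16216 genes called higher and 23.5% lower. In TPM none of the 4 had replicates 2 to 4 all above the young libraries. Itgb2 stood there at 152, 113 and 114 TPM, against at most 158 in young mice. With IgG2a, Itga4 (at most 10.2 TPM against at least 10.3) and Icam2 (at most 17.1 against at least 21.0) lay below every young library in TPM. The share of all genes that did so was not counted. The median log2 fold change of the 9 genes was 0.65 over all libraries and 0.76 without replicate 1, against 0.04 and -0.01 for all genes tested.

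Between aged aPD1ab-injected and aged IgG2a-injected mice, 0 of 9 genes passed the test over all libraries, and so did 0 of 15530 genes (called 0% higher and 0% lower). At an unadjusted p under 0.05, 5 of 9 members were lower, beside 12.2% of all genes tested, and 4341 genes passed that limit in either direction. Itgam and Itga4 were called lower by a fit of all 3 groups together, beside 6.14% of all genes, and by DESeq2, beside 6.33%. With voom and sample weights 7 members were called lower, all but Icam1 and Icam2, beside 18.8% of all genes. All 9 log2 fold changes were negative, with a median of -0.86 against -0.01 for all genes. Without aged IgG2a replicate 1, Itgam, Itgax, Itgb2, Itga4 and Selplg fell, by 2.17-fold to 2.91-fold, beside 13.2% of 15770 genes called lower and 17.1% higher.

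Against young mice, aged aPD1ab-injected mice had 1 of 9 genes called lower and 0 higher, beside 9.97% of 15986 genes called lower and 12.4% higher. That gene was Itga4, which fell 2.02-fold. The other 8 had log2 fold changes between -0.40 and 0.14, none of them past the test. These 3 comparisons share their libraries in pairs and are not independent of each other.

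**Figure D1:**
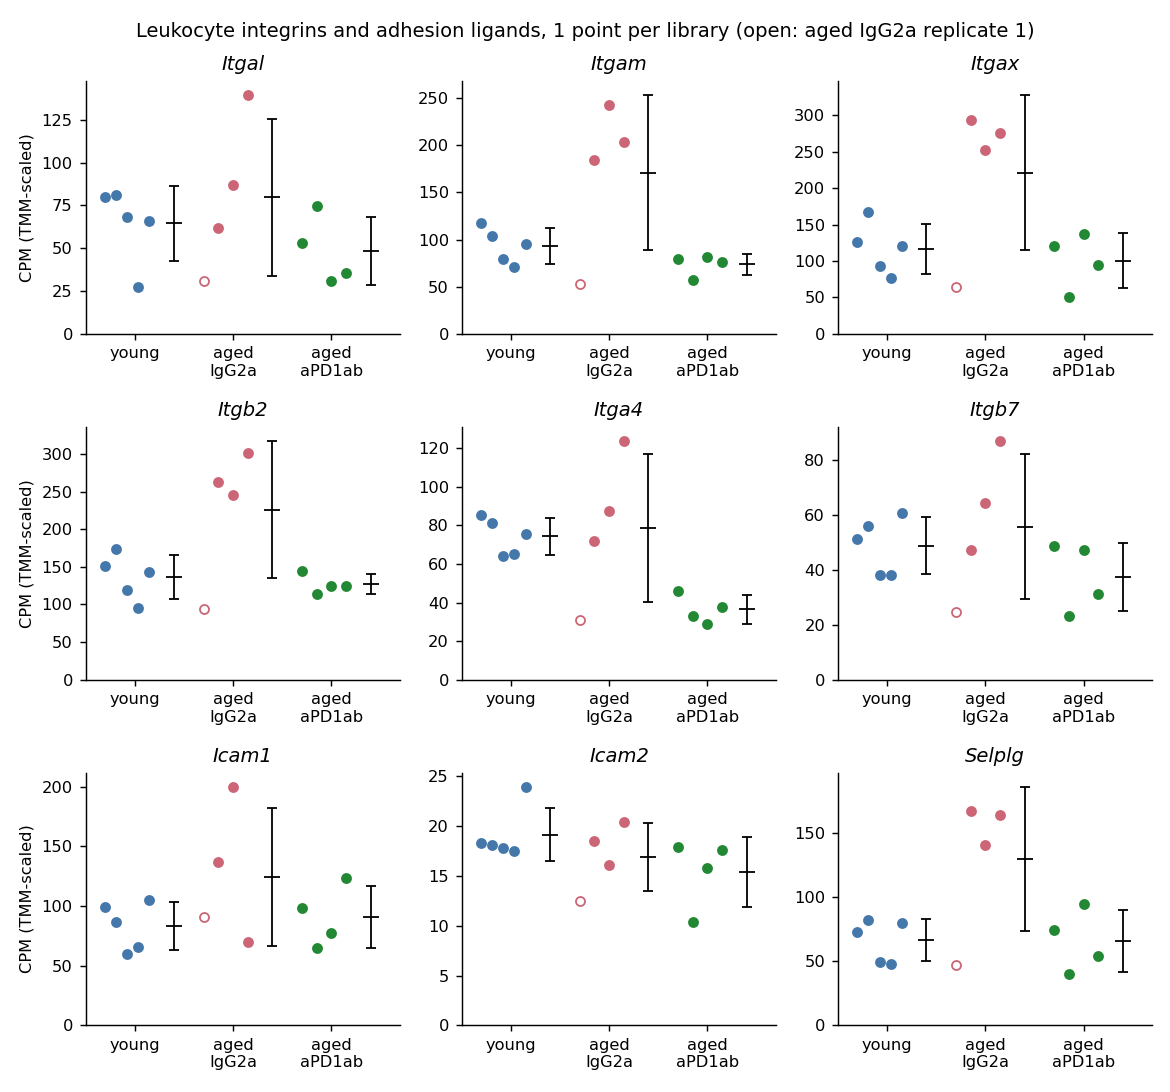
Level of each member in CPM (TMM-scaled, vertical axis from 0) in the 5 young, 4 aged IgG2a and 4 aged aPD1ab libraries, 1 point per library, with the mean and SD as a bar beside the points. For Itgam, Itgax, Itgb2 and Selplg, 3 aged IgG2a points lie above all other points and the open point, replicate 1, lies low, and for Itga4 all 4 aged aPD1ab points lie below all 5 young points.

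Itgb2, the shared beta2 chain, stood at 151, 173, 119.6, 95.4 and 143 CPM in the 5 young libraries, at 93.9, 263, 246 and 302 in aged IgG2a replicates 1 to 4, and at 145, 113, 125 and 124 in aged aPD1ab replicates 1 to 4. Aged IgG2a replicates 2 to 4 were thus above all young and all aPD1ab libraries, replicate 1 was below both groups, and the aPD1ab values lay inside the young range. The log2 fold change of aged IgG2a against young was 0.80 (standard error, SE, 0.31, edgeR adjusted p = 0.0970), and 1.04 (0.17, adjusted p = 0.000704) without replicate 1. With aPD1ab against IgG2a it was -0.86 (0.33, adjusted p = 0.140) over all libraries and -1.12 (0.13, adjusted p = 0.00640) without that replicate, and with aPD1ab against young it was -0.09 (0.17, adjusted p = 0.712).

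Itgam, the alpha chain of Mac-1 on macrophages, monocytes and neutrophils, was at 118, 103, 79.4, 70.5 and 94.8 CPM in young mice, at 53.3, 184, 243 and 203 with IgG2a, and at 79.5, 56.8, 81.2 and 76.7 with aPD1ab. The 3 higher IgG2a values were above all others, and 4 of 4 aPD1ab values were below the young mean of 93.2 ± 18.8 (SD, n = 5). Its log2 fold change was 0.95 (SE 0.36, edgeR adjusted p = 0.0932) for IgG2a against young and 1.23 (0.16, adjusted p = 0.000180) without replicate 1. For aPD1ab against IgG2a it was -1.24 (0.40, adjusted p = 0.119), and -1.54 (0.16, adjusted p = 0.00640) without replicate 1, and for aPD1ab against young it was -0.33 (0.16, adjusted p = 0.168).

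Itgax, the alpha chain of complement receptor 4, which marks dendritic cells and many tissue macrophages, stood at 126, 167, 93.5, 76.8 and 121 CPM in young mice, at 64.0, 293, 253 and 275 with IgG2a, and at 120.3, 50.6, 137 and 94.6 with aPD1ab. The young and aPD1ab groups overlapped, with the lowest value in aged aPD1ab replicate 2. IgG2a against young gave a log2 fold change of 1.00 (SE 0.40, edgeR adjusted p = 0.103), and 1.28 (0.21, adjusted p = 0.000994) without replicate 1. The value for aPD1ab against IgG2a was -1.17 (0.47, adjusted p = 0.153), and -1.48 (0.29, adjusted p = 0.0106) without replicate 1.

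Itgal, the alpha chain of LFA-1 on lymphocytes and myeloid cells, did not share this arrangement. It stood at 80.0, 80.9, 68.4, 27.1 and 66.0 CPM in young mice, at 30.8, 62.1, 86.8 and 139 with IgG2a, and at 53.2, 74.4, 31.0 and 35.5 with aPD1ab. All 3 groups overlapped, the aged IgG2a libraries spread over their whole range, and a single young library, replicate 4, lay far below the others. It did not pass the edgeR test in any of the 3 comparisons, and among the alternatives only voom called it, lower with aPD1ab against IgG2a. It had log2 fold changes of 0.38 (SE 0.42) for IgG2a against young, -0.73 (0.46) for aPD1ab against IgG2a and -0.40 (0.33) for aPD1ab against young. Without aged IgG2a replicate 1 the first was 0.62 (edgeR adjusted p = 0.202) and the second -0.998 (edgeR adjusted p = 0.0710).

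Itga4, the alpha chain of VLA-4, was the only member called between aged aPD1ab-injected and young mice. Its 5 young libraries held 85.3, 81.2, 64.3, 65.1 and 75.8 CPM, the 4 aPD1ab libraries 46.03, 33.1, 28.9 and 37.6, and the 4 IgG2a libraries 31.1, 72.1, 87.7 and 124. Every aPD1ab library was below every young library and below aged IgG2a replicates 2 to 4, while aged IgG2a replicate 1 lay inside the aPD1ab range. The fall against young had a log2 fold change of -1.02 (SE 0.15, edgeR adjusted p = 0.00374), from 74.3 ± 9.43 CPM (SD, n = 5) to 36.4 ± 7.32 (SD, n = 4). Scaled to the 6 pan-leukocyte genes instead, the log2 fold change was -0.96 and did not pass the test. That scaling called 1.22% of all genes in either direction, against 22.4% in the main fit. In the main fit of the same comparison 3 of 4 dendritic cell markers were called lower (median log2 fold change -1.15). Both NK cell markers tested, 2 of a list of 3, were also called lower (median -2.01). Called higher were 2 of 5 T cell markers (median 1.45) and 2 of 6 B and plasma cell markers (median 0.27). Of 6 pan-leukocyte and 7 macrophage markers 0 were called. The same held for 3 monocyte markers (median -0.32) and for the 4 neutrophil markers tested (median 0.38). Of 2 platelet markers tested, 1 was called higher (median 0.97). Over all genes tested 9.97% were called lower and 12.4% higher. Dendritic cell markers summed to between 54.4 and 93.2 CPM in young mice and between 19.8 and 47.9 with aPD1ab, and NK cell markers to between 3.69 and 6.79 and between 1.059 and 3.002. The part of any of these cell types in the fall of Itga4 was not tested. Against IgG2a the log2 fold change of Itga4 was -1.13 (0.37, adjusted p = 0.119), and -1.40 (0.21, adjusted p = 0.00737) without replicate 1. IgG2a against young gave 0.15 (0.32, adjusted p = 0.754), which turned to -0.37 when library totals alone set the scale, and 0.40 (0.16, adjusted p = 0.0688) without replicate 1.

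Itgb7, the beta chain that Itga4 joins in the gut-homing integrin, stood at 51.2, 56.1, 38.3, 38.2 and 60.7 CPM in young mice, at 24.6, 47.4, 64.4 and 87.0 with IgG2a, and at 48.6, 23.2, 47.2 and 31.2 with aPD1ab. The groups overlapped in all 3 comparisons. Itgb7 did not pass the edgeR test in any of them, and among the alternatives only voom called it, lower with aPD1ab against IgG2a. It had log2 fold changes of 0.26 (SE 0.32), -0.59 (0.38) and -0.37 (0.23) for IgG2a against young, aPD1ab against IgG2a and aPD1ab against young. Without aged IgG2a replicate 1, aPD1ab against IgG2a was -0.85 (0.28, edgeR adjusted p = 0.0552).

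Selplg, the selectin ligand, followed Itgb2, Itgam and Itgax. Young mice had 72.8, 81.7, 49.7, 48.1 and 79.8 CPM, IgG2a-injected mice 46.9, 167, 140.1 and 163, and aPD1ab-injected mice 74.6, 39.7, 94.3 and 53.9. Again 3 of the 4 IgG2a libraries were above all others, and replicate 1 was below every young library. Its log2 fold change was 1.04 (SE 0.34, edgeR adjusted p = 0.0625) for IgG2a against young and 1.29 (0.19, adjusted p = 0.000398) without replicate 1. It was -1.01 (0.41, adjusted p = 0.155) for aPD1ab against IgG2a, -1.29 (0.26, adjusted p = 0.0115) without replicate 1, and -0.01 (0.25, adjusted p = 0.982) for aPD1ab against young.

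Neither ligand of LFA-1 passed the edgeR test in any of the 3 comparisons. Icam1 was at 99.3, 87.0, 59.7, 65.6 and 105 CPM in young mice, at 90.9, 137, 199.8 and 69.8 with IgG2a, and at 98.6, 64.7, 77.0 and 124 with aPD1ab. Its high aged IgG2a libraries were replicates 2 and 3, which were also high for Itgam, Itgax and Itgb2, while replicate 4, high for those 3 genes too, was the lowest for Icam1. IgG2a against young gave a log2 fold change of 0.65 (SE 0.30, edgeR adjusted p = 0.146), and 0.76 (0.32, adjusted p = 0.0851) without replicate 1. Icam2 was at 18.3, 18.1, 17.8, 17.5 and 23.9 CPM in young mice, at 12.5, 18.5, 16.1 and 20.4 with IgG2a, and at 17.9, 10.3, 15.8 and 17.6 with aPD1ab. Its log2 fold changes were -0.12 (SE 0.16), -0.15 (0.22) and -0.30 (0.17) for IgG2a against young, aPD1ab against IgG2a and aPD1ab against young. With library totals alone as the scale, Icam2 was called lower with IgG2a than in young mice (log2 fold change -0.57), and that scale moved the median of all genes by -0.38.

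**Figure D2:**
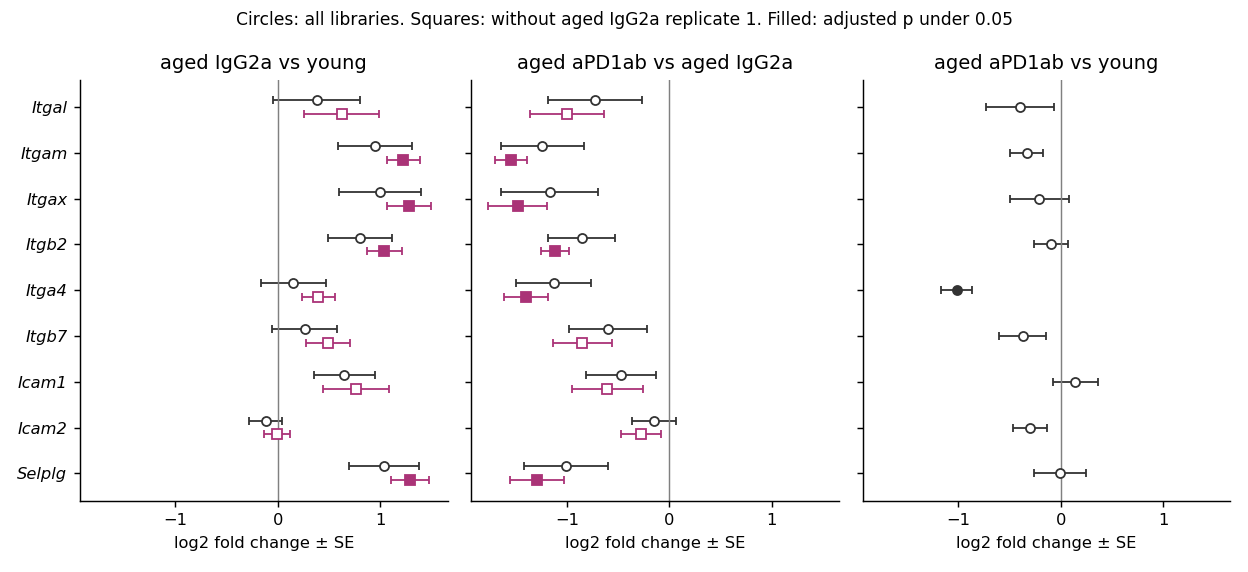
Log2 fold change of each member with its SE in the 3 comparisons (horizontal axis), over all libraries as circles and without aged IgG2a replicate 1 as squares, filled at an adjusted p under 0.05. No circle is filled in the first and middle panels, 4 and 5 squares are, and Itga4 is the filled circle at -1.02 in the last panel.

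Set against the 6 pan-leukocyte genes of the same library, Itga4 and Itgb7 were lower in both aged groups than in every young library, while Selplg overlapped between the groups and Itgb2 did so with a wide spread with aPD1ab. Itgb2 held 12.1 ± 0.667 counts per 100 pan-leukocyte counts in young mice (SD, n = 5), 11.1 ± 0.482 with IgG2a (SD, n = 4) and 11.9 ± 3.34 with aPD1ab (SD, n = 4), and the IgG2a values, replicate 1 included, lay between 10.5 and 11.6. Selplg held 5.85 ± 0.383, 6.22 ± 0.406 and 5.72 ± 0.408 in the same order. Itga4 lay between 5.81 and 8.24 in young mice, between 2.88 and 4.76 with IgG2a and between 1.91 and 4.77 with aPD1ab, so both aged groups were below every young library. Itgb7 lay between 4.00 and 4.83 in young mice, between 1.90 and 3.34 with IgG2a and between 3.04 and 3.70 with aPD1ab, again below every young library. These 2 of 9 genes were below without overlap with IgG2a, as were 4.57% of 15953 genes, and with aPD1ab so were these and Itgax (7.29 to 9.21 against 9.28 to 12.3), beside 3.6% of 15986 genes. Icam2 held between 0.713 and 0.783 in aged IgG2a replicates 2 to 4 and between 1.33 and 2.22 in young mice, and replicate 1, at 1.52, lay inside the young range. For Itgam, Itgal and Icam1 the groups overlapped on this scale. Pan-leukocyte counts sum leukocytes of all types, so the scale does not hold the mix of types fixed.

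**Figure D3:**
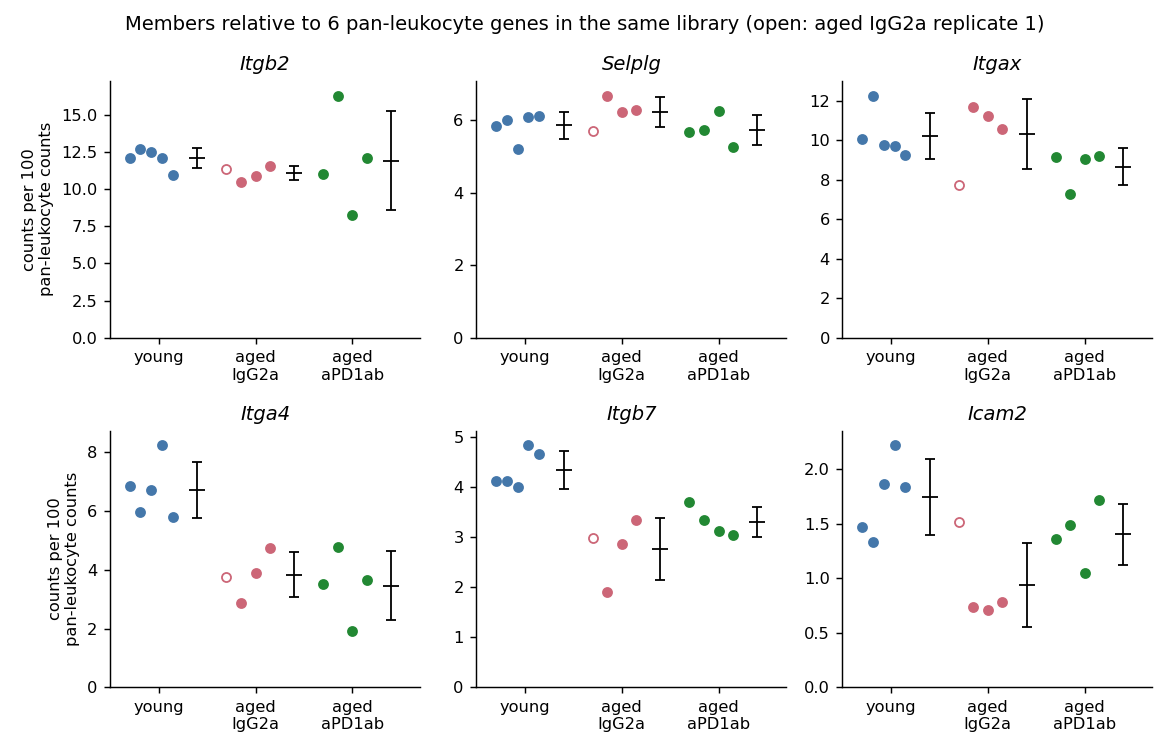
Counts of 6 members per 100 counts of the 6 pan-leukocyte genes in each library (vertical axis from 0), 1 point per library, with the mean and SD as a bar beside the points. Itga4 and Itgb7 lie lower in both aged groups than in every young library, and Itgb2 in aged IgG2a-injected mice lies between 10.5 and 11.6, the open point of replicate 1 included.

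The 3 alpha chains of the beta2 integrins kept their order of Itgax, Itgam and Itgal by group mean. Itgax made up 45.9 ± 3.69% of their summed counts per exon length in young mice (SD, n = 5), 49.4 ± 5.09% with IgG2a (SD, n = 4) and 47.4 ± 11.04% with aPD1ab (SD, n = 4). Itgal made up 18.3 ± 3.90%, 13.7 ± 4.18% and 18.4 ± 10.9%. Aged aPD1ab replicate 2 departed from this, with shares of 34.1% for Itgal, 34.1% for Itgam and 31.8% for Itgax. The summed alpha chains per Itgb2 were 1.17 ± 0.0578, 1.20 ± 0.202 and 1.03 ± 0.130 in young, IgG2a and aPD1ab libraries.

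**Figure D4:**
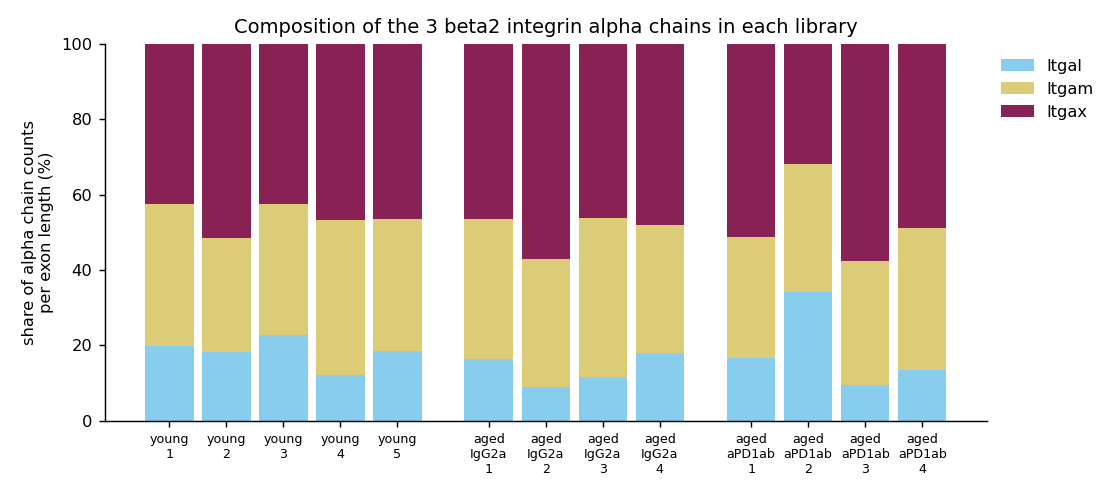
Share of Itgal, Itgam and Itgax in their summed counts per exon length (%), 1 stacked bar per library. Itgax is the largest part of each bar except that of aged aPD1ab replicate 2, where the 3 parts lie between 31.8% and 34.1%.

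Ratios of a chain to its partner within a library do not depend on the scaling of libraries. Of 12 comparisons (the ratios Itgal/Itgb2, Itgam/Itgb2, Itgax/Itgb2 and Itgb7/Itga4 in the 3 comparisons), 0 passed an exact two-sided permutation test after Benjamini-Hochberg adjustment. The largest difference was in Itgb7/Itga4, which lay between 0.587 and 0.801 in young mice and between 0.702 and 1.63 with aPD1ab, 0.62 higher on the log2 scale (exact permutation p = 0.0317, adjusted p = 0.381, where the smallest p for 4 against 5 libraries is 0.0159). It was above the young mean in 4 of 4 aPD1ab libraries, and the groups overlapped. With IgG2a the ratio lay between 0.658 and 0.789, 0.15 higher than in young mice on the log2 scale (exact permutation p = 0.206, adjusted p = 0.413). Itgam/Itgb2 lay between 0.502 and 0.650 with aPD1ab and between 0.598 and 0.781 in young mice (exact permutation p = 0.0794, adjusted p = 0.413).

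Genes whose log2 CPM was most like that of each member were sought over the 13 libraries among 16330 genes, as a description only, since the libraries share their groups and their mix of cells. Selplg had the closest likeness, to Pik3r6, Evi2a and Hcls1 (Pearson r of 0.993, 0.991 and 0.991). For Itgax these were Lcp1, Btk and Plbd1 (0.987, 0.982 and 0.981), for Itgb2 Myo1f, Lcp2 and Apbb1ip (0.978, 0.978 and 0.975), and for Itgam Nrm, Relt and Adcy7 (0.974, 0.972 and 0.967). Itga4 was most like Ccdc50, Akap13 and Zfp26 (0.969, 0.967 and 0.965) and Itgb7 most like Dhx57, Plcb2 and Fnbp1 (0.964, 0.952 and 0.948). Icam1 followed Zc3h12a, Rnf19b and Tnfaip3 (0.962, 0.943 and 0.942), Itgal followed Ttc7, Cd177 and Ccdc88c (0.921, 0.921 and 0.892), and Icam2 followed Foxd2, Ets1 and Gimap6 (0.921, 0.913 and 0.909). Over these 27 pairs r was between 0.882 and 0.990 after group means were subtracted, and between 0.875 and 0.992 without aged IgG2a replicate 1. Among the members themselves, Itgax and Selplg had r = 0.975 and Itgam and Itgb2 r = 0.947, while Icam1 had r = 0.0934 with Itgal and 0.180 with Itga4.

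The other genes of the adhesion cascade were 53 genes in 7 subgroups, of which 48 passed the filter on low counts. Their list was written with earlier results of these data known, so the counts of called genes are a description only. In aged IgG2a-injected against young mice, 16 of the 48 were called higher and 4 lower over all libraries, beside 9.05% and 8.38% of all genes. Without aged IgG2a replicate 1 these were 30 and 9, beside 22.1% and 23.5%. Leaving out any single one of the other 8 libraries gave between 3 and 5 higher and between 1 and 3 lower, and the share of all genes called in either direction went from 17.4% to between 3.397% and 9.54%. With aPD1ab against IgG2a they were 0 and 0, and 2 higher and 24 lower without replicate 1, beside 17.1% and 13.2% of all genes. With aPD1ab against young they were 4 and 4, beside 12.4% and 9.97%. The 4 lower were 2 without aged aPD1ab replicate 3, young replicate 1 or young replicate 5. Those fits called 18.5%, 15.3% and 17.6% of all genes in either direction, against 22.4% in the main fit. The median log2 fold changes of the 48 genes in the 3 comparisons over all libraries were 0.59, -0.51 and -0.06.

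Of the listed endothelial ligands, Vcam1 binds Itga4 paired with Itgb1, and the study also counts it among injury transcripts of tubules. Which cells of the fraction carried it was not tested. Its level was 28.9 to 51.6 CPM in young mice, 94.0 to 237 with IgG2a and 78.3 to 129 with aPD1ab. Vcam1 in both aged groups, replicate 1 included, thus lay above every young library. It rose with IgG2a against young (log2 fold change 2.22, SE 0.29, edgeR adjusted p = 0.00422) and with aPD1ab against young (1.46, 0.19, adjusted p = 0.00315). Vcam1 with aPD1ab against IgG2a was -0.73 (0.33, adjusted p = 0.189). Sele, the E-selectin of activated endothelium, was at 1.81 to 3.94 CPM in young mice, at 3.18 to 9.53 with IgG2a and at 8.73 to 20.5 with aPD1ab. It rose with IgG2a (1.20, 0.32, adjusted p = 0.0343) and with aPD1ab (2.35, 0.30, adjusted p = 0.00307) against young, and with aPD1ab against IgG2a it was 1.18 (0.36, adjusted p = 0.112). Selp, the P-selectin of platelets and endothelium, stayed under 1 CPM in every library and Cd34, a sialomucin of endothelium and progenitor cells, did not pass the edgeR test, with -0.23, 0.16 and -0.10 for IgG2a against young, aPD1ab against IgG2a and aPD1ab against young. Madcam1, Glycam1, Icam4 and Icam5 were below the filter. The 7 endothelial markers summed to between 625 and 938 CPM in young mice, to between 470 and 590 with IgG2a and to between 297 and 813 with aPD1ab.

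**Figure D5:**
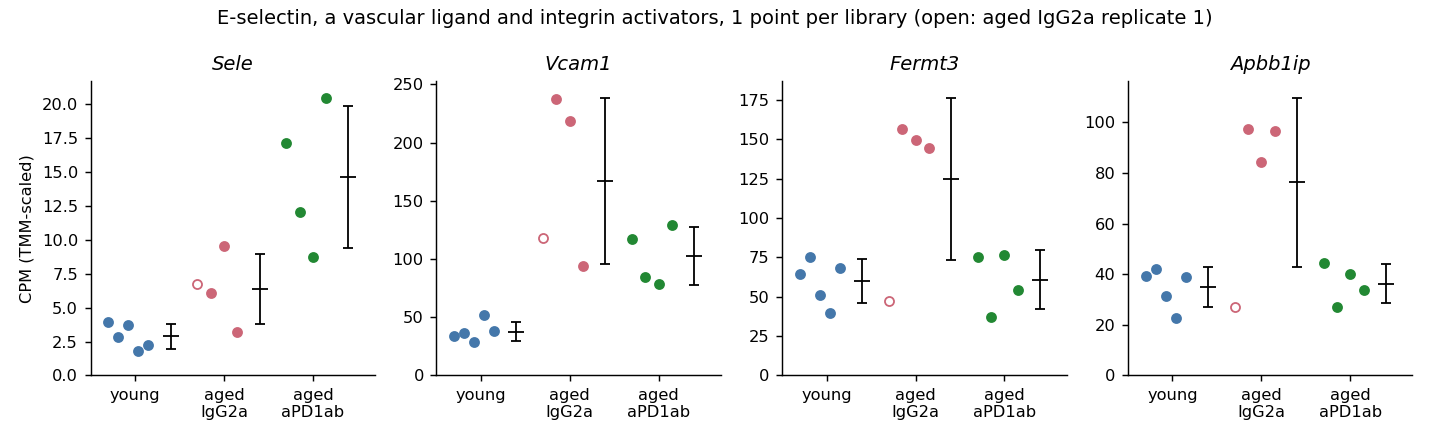
Level in CPM (TMM-scaled, vertical axis from 0) of E-selectin (Sele), Vcam1 and 2 integrin activators (Fermt3 and Apbb1ip), 1 point per library, with the mean and SD as a bar beside the points. Vcam1 lies between 28.9 and 51.6 CPM in young and at 78.3 or more in all aged libraries, and the activators are high in 3 of 4 aged IgG2a libraries.

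Of 9 genes that switch integrins on from inside the cell, 5 were called higher with IgG2a against young, beside 9.05% of all genes, namely Fermt3 (kindlin-3, log2 fold change 1.14), Apbb1ip (RIAM, which brings talin to the Rap1 GTPases, 1.20), Rap1a (0.63), Rap1b (0.74) and Rassf5 (the Rap1 effector RAPL, 0.80). Tln1 (talin, 0.30), Rasgrp2 (the Rap1 exchange factor CalDAG-GEFI, 0.05), Cyth1 (cytohesin, 0.41) and Dock2 (a Rac exchange factor, 0.84) did not pass. Fermt3 was at 40.0 to 75.0 CPM in young mice, at 145 to 157 in aged IgG2a replicates 2 to 4 and at 47.6 in replicate 1. Without that replicate 8 of the 9, all but Rasgrp2, were called higher against young, beside 22.1% of all genes, and the same 8 were called lower with aPD1ab against IgG2a, beside 13.2%. None of the 9 passed with aPD1ab against young, where their median was 0.04 against 0.02 for all genes.

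The other subgroups are read beside the same shares for IgG2a against young, 9.05% of all genes higher and 8.38% lower over all libraries, and 22.1% and 23.5% without replicate 1. In the outside-in signalling subgroup 5 of 8 genes were called higher with IgG2a against young over all libraries and 8 of 8 without replicate 1, and with aPD1ab against IgG2a these were 0 and 7 called lower, beside 13.2% of all genes without replicate 1. Of 8 genes of selectin ligand glycosylation and other ligands, 1 was called higher and 1 lower with IgG2a against young, and 7 and 1 without replicate 1. Of 9 measured junction and transmigration genes, 1 was higher and 3 lower, and 2 and 6 without replicate 1. Among 9 other integrin chains 2 were higher and 0 lower, and 3 and 2 without replicate 1. The counts of lower genes in the glycosylation and other integrin groups, and of higher junction genes, were near those shares. Among these is a further partner of Itgb2, Itgad (CD11d), named here after its values were seen. Itgad lay between 0.0671 and 0.305 CPM in young mice, at or near the level of 3 counts, between 2.14 and 2.86 with IgG2a, replicate 1 included, and between 1.67 and 3.32 with aPD1ab, and it was called higher in both aged groups against young.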

How the data were processed

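The authors deposited 1 table of raw read counts per gene for the podocyte fraction of individual mice, and the submitters' processing notes name HISAT2, featureCounts and mm10 (GRCm38), with versions and strand setting not given in the sources used here. Of 15 columns, 13 were tied to groups through the numbers beside the points of the principal component plot of the study, and 2 were not used. Total counts lay between 19912969 and 32717100. The 3 comparisons were fitted separately in edgeR 4.0.16 (R 4.3.3; TMM scaling, filterByExpr, robust quasi-likelihood test), p-values were Benjamini-Hochberg adjusted over all genes tested, and genes were called at an adjusted p under 0.05 with no fold threshold. The main test was also run on simulated counts with known changes. No simulated library stood apart from its group, so that run does not cover calls that depend on a single library. CPM used TMM scaling and log2 CPM a prior count of 2, and TPM used the union of GENCODE M21 exons. Chain ratios were compared by exact permutation tests (SciPy 1.17.1, Python 3.11.15). Alternatives were DESeq2 1.42.0, limma 3.58.1 voom with sample weights, 1 fit of 3 groups, other scalings (library totals, DESeq2 size factors, the 6 pan-leukocyte genes), no filter, other pseudocounts and leaving out each library. By the rule for named genes, all 9 members and 14 other adhesion genes were to be given with values and other genes by counts, except where said, and 1 of the 14 is not reported here. The 9 members and all lists were chosen with earlier results of these data known. Protein sequences were not used here.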

Additional observations from a re-analysis of the deposited data

Results flagged for a closer look

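Among 39 groups of libraries tested for a value far from the others (each member in each group, and the chain ratios), 2 were flagged, and chance flags about 1 in 20 groups. Itgal stood at 27.1 CPM in young replicate 4, against 66.0 to 80.9 in the other 4 young libraries, a gap of 0.724 of the group's range where 0.71 is the limit for 5 libraries. Icam2 stood at 23.9 CPM in young replicate 5, against 17.5 to 18.3 in the others, a gap of 0.881 of the range. The cause of either value was not tested.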

How the results depend on the processing

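No paired analysis was possible because the replicate numbers are column order and do not tie mice of different groups. Leaving out 1 library at a time, the count of members called higher in aged IgG2a-injected against young mice ranged from 0 to 4, and of members called lower with aPD1ab against IgG2a from 0 to 5, with the highest counts without aged IgG2a replicate 1. The other adhesion genes called in aged IgG2a-injected against young mice ranged from 3 to 30 higher and from 1 to 9 lower, with aPD1ab against IgG2a from 0 to 2 higher and from 0 to 24 lower, and with aPD1ab against young from 2 to 5 lower. The share of all genes called in either direction with aPD1ab against young ranged from 14.6% to 23.8% in those fits. For IgG2a against young, members called higher numbered 2 with DESeq2 and 4 with voom, and 1 was called lower with library totals. The other adhesion genes there numbered 30 higher with voom, 2 with library totals, 1 with pan-leukocyte scaling and 7 with no filter, and 8 lower with DESeq2, 8 with voom, 11 with library totals and 0 with pan-leukocyte scaling. Of all genes tested there, the main test called 17.4% in either direction, voom 46.5%, DESeq2 27.9% and library totals 23.3%. With no filter 7.27% were called, and with pan-leukocyte scaling 0.376%. For aPD1ab against IgG2a, members called lower numbered 2 with 1 fit of 3 groups, 2 with DESeq2 and 7 with voom, and other adhesion genes 3, 3 and 4 higher and 8, 7 and 26 lower in the same order. Over all genes 0 were called there by the main test, against 2863, 2373 and 6160. For aPD1ab against young, pan-leukocyte scaling called 0 members lower and 1 other adhesion gene lower. It called 1.22% of all genes there in either direction, against 22.4% by the main test.

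Directions turned as follows on the log2 scale. For IgG2a against young, library totals gave Itgal -0.16, Itga4 -0.37 and Itgb7 -0.26, and pan-leukocyte scaling gave Itgal -0.54, Itgam -0.037, Itgb2 -0.12, Itga4 -0.81, Itgb7 -0.65 and Icam1 -0.076. For aPD1ab against IgG2a, pan-leukocyte scaling gave Itgal 0.39, Itgb2 0.10, Itgb7 0.26, Icam1 0.28 and Icam2 0.58, and library totals gave Icam2 0.16. Leaving out 1 library, values for IgG2a against young ranged from -0.055 to 0.62 for Itgal, from -0.17 to 0.40 for Itga4 and from -0.055 to 0.49 for Itgb7, each lowest without aged IgG2a replicate 4. For aPD1ab against young they ranged from -0.39 to 0.012 for Itgax and from -0.23 to 0.17 for Selplg, both highest without aged aPD1ab replicate 2, from -0.21 to 0.0026 for Itgb2, and from -0.046 to 0.28 for Icam1, lowest without aged aPD1ab replicate 4. None of the values that turned had passed the test. Library totals and pan-leukocyte scaling moved the median of all genes to -0.38 and -0.60 for IgG2a against young, and to 0.24 and 0.63 for aPD1ab against IgG2a.

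Chain ratios without 1 library ranged, as log2 differences, from -0.090 to 0.18 for Itgam/Itgb2 with IgG2a against young, and with aPD1ab against young from -0.31 to -0.18 for Itgam/Itgb2, from -0.36 to 0.067 for Itgax/Itgb2 and from 0.39 to 0.79 for Itgb7/Itga4. The cause of these changes was not tested. Every member was far above 3 counts in every library.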
